A study of Arabidopsis thaliana with 18 samples.

Results

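The genes described are 54 nuclear genes of *Arabidopsis thaliana* for subunits of the mitochondrial respiratory chain and ATP synthase. They were listed by locus, and each was read through its lowest-numbered splice variant. All 54 of 54 had a row among the 32294 splice variants counted, and all passed the filter on low counts that kept 25202 variants. The list holds 22 genes of complex I, 5 of complex II, 11 of complex III, 7 of complex IV, 2 for cytochrome c and 7 of complex V, the ATP synthase. The rule names loci and uses no measured value, but the list was chosen with earlier results of these data known.

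RNA was sequenced from leaf mesophyll protoplasts, which are leaf cells freed of their walls by enzymes, of Columbia-0 (WT) and of *nph4-1 arf19-1*, a double mutant in the same background that lacks function of the auxin response factors ARF7 and ARF19. Protoplasts came from rosette leaves of plants grown in continuous light, and were collected fresh (Day 0) or after 4 or 6 days in alginate gel in the dark, in a liquid medium with glucose, mannitol, the auxin 2,4-D and the cytokinin thidiazuron. Each of the 6 groups of genotype and day held 3 libraries, which the study calls biological replicates. The treatment label of the Day 6 *nph4-1 arf19-1* libraries reads yucasin, an inhibitor of auxin synthesis, while their titles name no inhibitor, so that genotype and inhibitor cannot be told apart at Day 6.

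The libraries held 3438524 to 12119944 mapped reads. *ARF7* (AT5G20730) ran from 41.1 to 109.9 counts per Mread mapped (RPM) in WT and from 12.3 to 27.8 in the mutant, without overlap on any day. *ARF19* (AT1G19220) was 57.2 RPM or higher in WT at Days 4 and 6, against 12.1 or lower in the mutant, while at Day 0 the ranges overlapped. The 8 mesophyll markers summed to 877 to 3371 RPM at Day 0, 685 to 1413 at Day 4, 1325 to 1899 in WT at Day 6 and 460.0 to 953 in *nph4-1 arf19-1* at Day 6. The 4 epidermal markers summed to at most 1.27 RPM in any library and the 4 guard cell markers to at most 17.6 RPM. The 5 vascular markers reached 40.9 RPM in WT at Day 6 and at most 2.09 RPM in the mutant at any day. The WT sum at Day 6 rested almost wholly on SUC2 (AT1G22710), at a mean of 25.9 CPM (scaled as given below). There AT4G35350 was at 0.219 CPM, and 3 of the 5 markers had no reads in any library of the group. In bulk RNA, fewer cells of a type and less RNA per cell cannot be told apart.

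The respiratory chain in the inner mitochondrial membrane passes electrons from NADH (complex I) or succinate (complex II) through ubiquinone to complex III, then through the small mobile protein cytochrome c to complex IV, which reduces oxygen. Complexes I, III and IV pump protons, and complex V makes ATP from the proton gradient. A few subunits are encoded in the mitochondrial genome, and the rest are made in the cytosol from nuclear genes and imported. In plants, complex I carries a domain of gamma carbonic anhydrases, complex III also holds the peptidase that processes imported proteins, and many nuclear subunits have more than 1 gene. Promoters of such genes in Arabidopsis often carry site II elements, TGGGCC or TGGGCT.

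Site II elements were searched on both strands in the 300 bases from 250 before to 50 after each gene's annotated start (RefSeq, TAIR10.1). TGGGCC or TGGGCT was present in 32 of 54 members (59.3%), against 21.7% of 27443 nuclear protein-coding promoters, and 29 members (53.7%) had at least 2 matches, against 13.7% of all. A TGGGCC followed by CA reads the same on both strands and was counted on each, while the G-box, which is its own complement, was counted once. The telo-box AAACCCTA was found in 3 members (5.56%, against 6.22% of all) and the G-box CACGTG in 5 (9.26%, against 7.68%). All 5 complex II promoters lacked site II, while 14 of 22 of complex I, 8 of 11 of complex III, 3 of 7 of complex IV, both of cytochrome c and 5 of 7 of complex V had it. These are counts of letters and carry no test of binding.

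The 2 genes that fell past the study's log2FC limit of 2 from Day 0 to Day 4 in WT, QCR7-2 and CYTC-2, are shown with the other gene for the same protein. The 250 bases before the start are given 5′ to 3′ on the strand of the gene, with site II elements and the G-box in capitals. QCR7-1 lies on the minus strand (window chr4:15671250-15671499), QCR7-2 lies on the plus strand (window chr5:8856667-8856916), CYTC-1 on the plus strand (window chr1:8079037-8079286) and CYTC-2 on the plus strand (window chr4:6276698-6276947), all in TAIR10.1.
QCR7-1: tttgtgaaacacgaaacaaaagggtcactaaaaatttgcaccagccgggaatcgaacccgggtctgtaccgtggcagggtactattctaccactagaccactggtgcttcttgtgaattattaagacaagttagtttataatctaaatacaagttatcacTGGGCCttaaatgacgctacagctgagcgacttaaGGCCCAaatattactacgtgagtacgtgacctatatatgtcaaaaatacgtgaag
QCR7-2: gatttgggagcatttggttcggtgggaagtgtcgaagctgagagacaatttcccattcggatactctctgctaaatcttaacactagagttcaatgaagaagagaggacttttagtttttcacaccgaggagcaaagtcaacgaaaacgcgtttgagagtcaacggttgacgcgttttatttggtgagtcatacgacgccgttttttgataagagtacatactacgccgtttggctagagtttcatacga
CYTC-1: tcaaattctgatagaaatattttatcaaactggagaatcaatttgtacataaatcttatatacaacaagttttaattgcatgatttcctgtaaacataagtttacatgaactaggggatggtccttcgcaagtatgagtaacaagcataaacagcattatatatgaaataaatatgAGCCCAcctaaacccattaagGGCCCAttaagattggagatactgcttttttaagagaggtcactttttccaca
CYTC-2: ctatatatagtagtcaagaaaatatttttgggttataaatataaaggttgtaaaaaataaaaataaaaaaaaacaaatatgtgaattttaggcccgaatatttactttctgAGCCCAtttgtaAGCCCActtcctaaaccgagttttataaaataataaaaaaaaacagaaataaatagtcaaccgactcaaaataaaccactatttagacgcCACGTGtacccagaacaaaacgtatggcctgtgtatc
The QCR7-1 window showed TGGGCC 2 times, once on each strand. The QCR7-2 window showed none of the motifs searched. CYTC-1 carried TGGGCC and TGGGCT once each, both on the other strand, and CYTC-2 carried TGGGCT 2 times on the other strand and a G-box.

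Levels are given below as CPM, which are RPM after scaling by TMM (the trimmed mean of M-values of edgeR), for replicates 1, 2 and 3 in that order, and differences as log2 fold changes (log2FC) ± SE from edgeR's quasi-likelihood test of 3 libraries against 3. A gene was called at a false discovery rate (FDR, Benjamini-Hochberg over all 25202 variants) below 0.01. Shares of all variants are for such calls, and counts at an unadjusted p below 0.05 are of members only. The TMM factors were 0.564 to 0.683 at Day 0, 1.18 to 1.33 at Day 4, 1.44 to 1.495 in WT at Day 6 and 1.09 to 1.13 in *nph4-1 arf19-1* at Day 6. Because these factors move with the groups, the median over all variants is given for the scaling by TMM and for library totals alone.

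**Figure D1:**
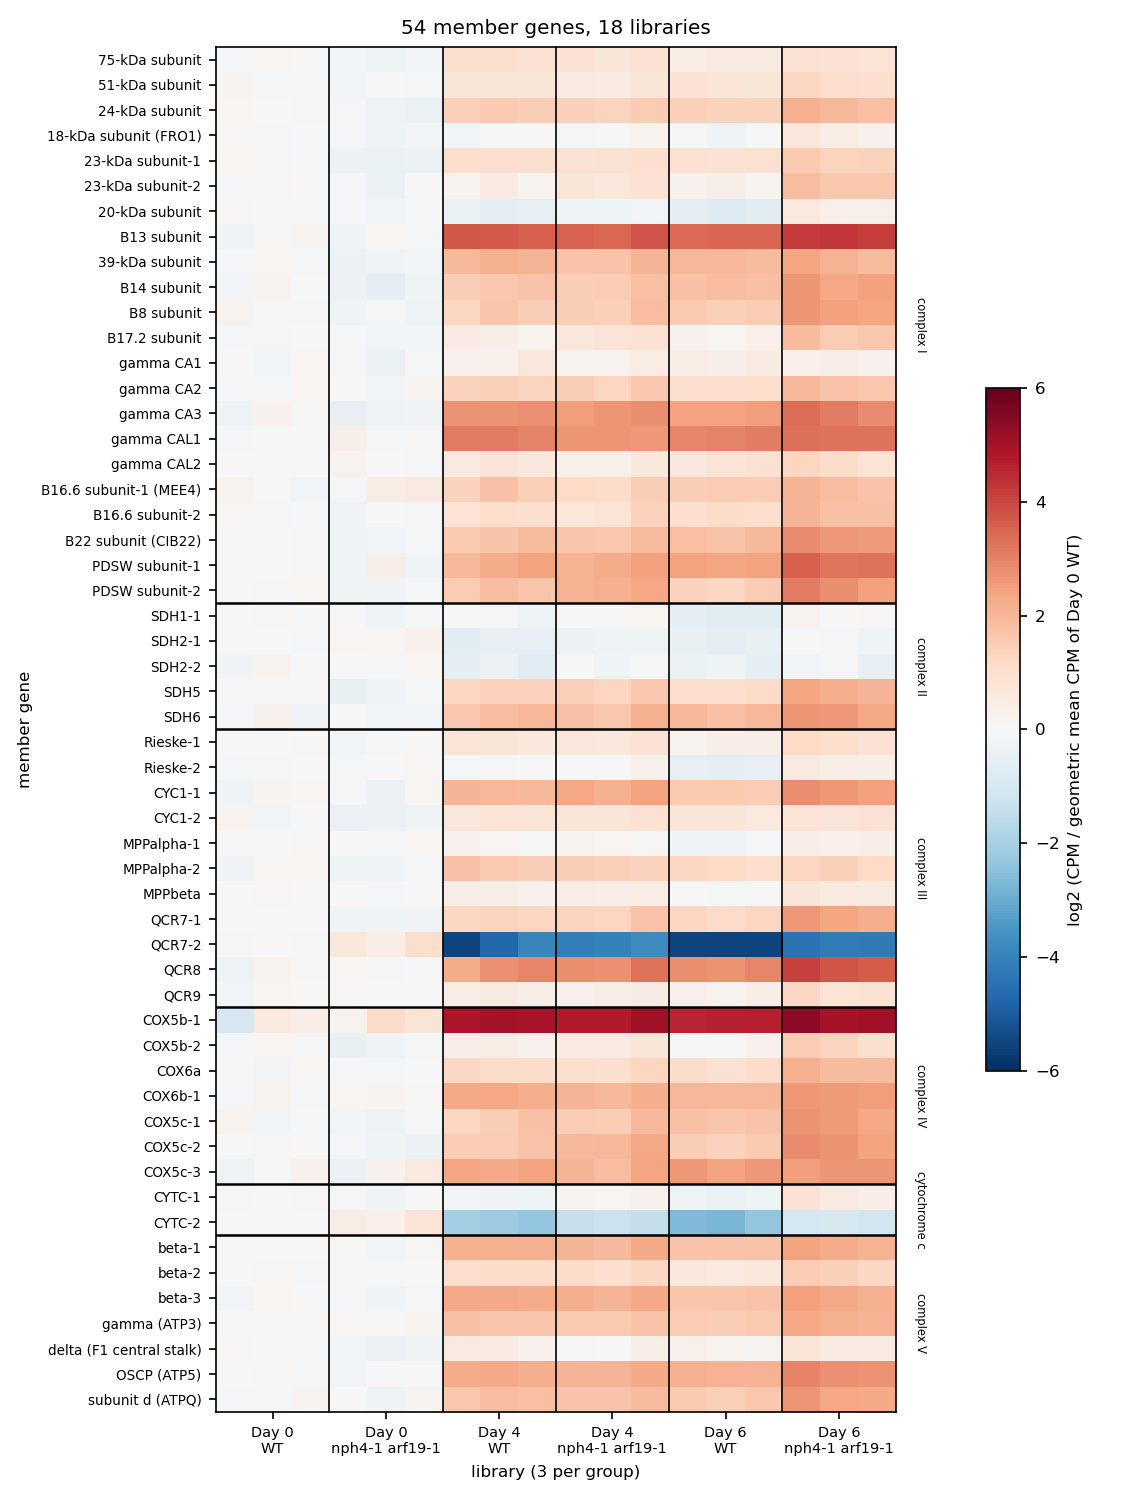
Level of each of the 54 members (rows, by complex) in each of the 18 libraries (columns, 3 per group), as log2 of CPM over the geometric mean CPM of Day 0 WT, red for higher and blue for lower. Most rows turn red at Day 4, while QCR7-2 and CYTC-2 turn blue.

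The first comparison asked how the genes changed over the first days in culture. From Day 0 to Day 4 in WT, 42 of 54 members rose and 5 fell, with a median log2FC of 1.32. Of all variants, 42.6% were called higher and 37% lower, with a median of 0.23. In *nph4-1 arf19-1*, 43 members rose and 3 fell, with a median of 1.37, against 39% and 36.1% of all variants and a median of 0.18. Of the members, 41 were called higher in both genotypes and 3 lower in both. With the study's added limit of a log2FC beyond 2, 12 members were higher and 2 lower in WT (24.9% and 14.5% of all variants), and 14 were higher and 1 lower in the mutant (20.5% and 12.2%).

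Scaled by library totals alone, the median over all variants was 1.26 in WT and 1.19 in the mutant, and 52 members were called higher and 2 lower in each genotype. Of all variants, 61.6% were then called higher and 20.6% lower in WT, and 60.6% and 18.7% in the mutant. The median of the members lay above that of all variants by 1.09 in WT under both scalings, and 44 of 54 members were above it. The scalings differ by a shift common to all genes of a contrast, so that this agreement was set in advance. Summed over the 54 genes, reads rose from 0.288–0.305% of mapped reads in WT at Day 0 to 1.01–1.05% at Day 4, and from 0.263–0.281% to 0.896–1.02% in the mutant. The 8 mesophyll markers moved the other way in the TMM fit, with 5 called lower in WT and 7 in the mutant (37% and 36.1% of all variants). The part of these markers in the result was not tested.

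Complex I was raised almost throughout, with 19 of its 22 members higher and 1 lower in WT, and a median log2FC of 1.43. Its membrane arm genes and its carbonic anhydrase genes were all called higher, 5 of 5 each, and 9 of 12 matrix arm genes rose.
B13 (AT5G52840) had a level of 7.12, 8.53 and 9.15 CPM in WT on Day 0, of 108, 104 and 100.04 on Day 4 and of 87.8, 91.5 and 93.7 on Day 6. B13 in *nph4-1 arf19-1* had 6.91, 8.99 and 7.62 CPM on Day 0, then 96.4, 88.7 and 112 on Day 4 and 153, 157 and 144 on Day 6. B13, an accessory subunit of the matrix arm, stood at 9.15 CPM or lower in all 6 Day 0 libraries and at 87.8 CPM or higher in all 12 later ones. Its change from Day 0 to Day 4 was the highest of complex I in WT (log2FC 3.65 ± 0.13, edgeR adjusted p = 1.3e-15), and the mutant value was the same to 2 decimals.
The 20-kDa subunit gene (AT5G11770) had a level of 235, 225 and 222 CPM in WT on Day 0, of 171, 158 and 164 on Day 4 and of 152, 133 and 143 on Day 6. The 20-kDa subunit gene in *nph4-1 arf19-1* had 208, 200.3 and 220.2 CPM on Day 0, then 189, 189 and 205 on Day 4 and 342, 282 and 281 on Day 6. This gene for the iron-sulphur subunit at the ubiquinone site was the only complex I member called lower in WT (log2FC -0.47 ± 0.10, edgeR adjusted p = 0.00019), with no overlap between days. Under library totals alone the value turned to 0.56, called higher, so that its fall is relative to other genes. In the mutant the ranges of Days 0 and 4 overlapped and the call was not made (log2FC -0.11).

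The gamma carbonic anhydrase domain held both strong and weak risers.
gamma CAL1 (AT5G63510) had a level of 7.12, 7.48 and 7.52 CPM in WT on Day 0, of 63.2, 64.96 and 57.9 on Day 4 and of 55.5, 57.2 and 62.6 on Day 6. gamma CAL1 in *nph4-1 arf19-1* had 9.34, 6.99 and 7.62 CPM on Day 0, then 45.6, 46.1 and 44.5 on Day 4 and 73.5, 71.4 and 70.96 on Day 6. In gamma CAL1, a carbonic anhydrase-like protein, the WT rise (log2FC 3.07 ± 0.11, edgeR adjusted p = 3.1e-15) left the WT libraries of Day 4 above those of the mutant. Under TMM the order of the genotypes was the opposite at Day 6, without overlap on either day. In RPM the Day 6 libraries overlapped, at 80.5, 85.6 and 90.3 in WT and 79.99, 81.0 and 78.8 in the mutant.
gamma CA1 (AT1G19580) had a level of 21.3, 18.9 and 22.6 CPM in WT on Day 0, of 25.1, 26.2 and 33.5 on Day 4 and of 28.04, 26.2 and 29.2 on Day 6. gamma CA1 in *nph4-1 arf19-1* had 19.6, 15.97 and 19.4 CPM on Day 0, then 24.3, 24.1 and 28.5 on Day 4 and 26.1, 26.9 and 24.6 on Day 6. Gamma CA1, a carbonic anhydrase subunit proper, rose only slightly (log2FC 0.44 ± 0.13, edgeR adjusted p = 0.0036), and its genotypes overlapped at Days 0, 4 and 6. Gamma CA2 (AT1G47260), 1652 of whose 2807 transcript bases lie opposite another annotated gene, rose by 1.39 ± 0.11 in WT, and gamma CA3 (AT5G66510) by 2.67.

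The membrane arm includes the GRIM-19-like B16.6 subunit and the PDSW subunit, each with 2 genes.
MEE4, B16.6 subunit-1, (AT1G04630) had a level of 9.62, 8.27 and 7.52 CPM in WT on Day 0, of 21.9, 28.3 and 23.01 on Day 4 and of 23.1, 24.3 and 24.1 on Day 6. MEE4, B16.6 subunit-1, in *nph4-1 arf19-1* had 7.85, 11.5 and 12.4 CPM on Day 0, then 19.5, 17.96 and 23.3 on Day 4 and 34.1, 29.9 and 27.5 on Day 6. MEE4 rose in both genotypes (log2FC 1.52 ± 0.16, edgeR adjusted p = 3.1e-08 in WT) and its Day 4 ranges overlapped between genotypes.
B16.6-2 (AT2G33220) had a level of 41.5, 37.5 and 39.8 CPM in WT on Day 0, of 70.3, 83.5 and 79.6 on Day 4 and of 78.6, 86.3 and 81.7 on Day 6. B16.6-2 in *nph4-1 arf19-1* had 34.2, 40.3 and 38.3 CPM on Day 0, then 63.4, 70.4 and 102 on Day 4 and 163, 134 and 134 on Day 6. B16.6-2 was the higher of the pair per kilobase of transcript in every library, and rose by 0.97 ± 0.14 in WT.
PDSW-1 (AT1G49140) had a level of 8.46, 8.27 and 7.93 CPM in WT on Day 0, of 32.3, 37.9 and 43.4 on Day 4 and of 44.3, 42.2 and 44.3 on Day 6. PDSW-1 in *nph4-1 arf19-1* had 6.91, 10.3 and 6.96 CPM on Day 0, then 34.9, 38.7 and 45.8 on Day 4 and 97.3, 76.99 and 77.5 on Day 6. PDSW-1 rose by 2.20 ± 0.16 in WT, with overlapping genotypes at Days 0 and 4.
PDSW-2 (AT3G18410) had a level of 27.3, 26.1 and 29.9 CPM in WT on Day 0, of 78.8, 99.02 and 88.3 on Day 4 and of 72.5, 65.02 and 79.3 on Day 6. PDSW-2 in *nph4-1 arf19-1* had 23.9, 23.6 and 25.9 CPM on Day 0, then 119, 121 and 140.2 on Day 4 and 241, 192 and 153 on Day 6. PDSW-2 rose by 1.68 ± 0.15 in WT and by 2.37 ± 0.15 in the mutant, where all 3 libraries of Day 4 were above those of WT.

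In complex II under TMM, the 2 plant-specific subunits, SDH5 and SDH6, rose, while of the 3 catalytic genes none rose and 2 fell in WT. Under library totals alone all 5 were called higher in both genotypes, so that the falls below are relative to other genes.
SDH6 (AT1G08480) had a level of 16.9, 21.1 and 15.04 CPM in WT on Day 0, of 53.6, 62.5 and 70.6 on Day 4 and of 68.8, 61.7 and 69.7 on Day 6. SDH6 in *nph4-1 arf19-1* had 17.9, 15.8 and 15.9 CPM on Day 0, then 58.96, 54.4 and 75.9 on Day 4 and 110.2, 105 and 86.7 on Day 6. SDH6 rose by 1.80 ± 0.15 in WT, with every Day 4 library above every Day 0 library.
SDH5 (AT1G47420) had a level of 65.4, 64.8 and 65.8 CPM in WT on Day 0, of 157, 172 and 173 on Day 4 and of 133, 131 and 144 on Day 6. SDH5 in *nph4-1 arf19-1* had 47.5, 55.6 and 61.6 CPM on Day 0, then 175, 162 and 200.2 on Day 4 and 333, 294 and 268 on Day 6. SDH5 rose by 1.36 ± 0.11 in WT, also without overlap between the days.
SDH2-1 (AT3G27380) had a level of 192, 190.4 and 181 CPM in WT on Day 0, of 121, 132 and 132 on Day 4 and of 139, 125 and 136 on Day 6. SDH2-1 in *nph4-1 arf19-1* had 204, 202 and 227 CPM on Day 0, then 146, 151 and 154 on Day 4 and 188, 176 and 156 on Day 6. SDH2-1, an iron-sulphur subunit, fell in both genotypes without overlap (log2FC -0.55 ± 0.09, edgeR adjusted p = 1.9e-05 in WT), but under library totals alone its WT value was 0.48, called higher. It shares 328 exon bases with a neighbouring gene on the same strand, and the 2 cannot be told apart there.
SDH2-2 (AT5G40650) had a level of 45.8, 61.3 and 51.2 CPM in WT on Day 0, of 35.96, 40.8 and 33.99 on Day 4 and of 39.3, 43.6 and 35.5 on Day 6. SDH2-2 in *nph4-1 arf19-1* had 52.5, 49.4 and 57.01 CPM on Day 0, then 52.1, 45.2 and 50.3 on Day 4 and 46.1, 49.2 and 37.7 on Day 6. SDH2-2, the second gene for that subunit, fell in WT (log2FC -0.52 ± 0.13, edgeR adjusted p = 0.00074), and its mutant libraries of Days 0 and 4 overlapped. Under library totals alone its WT value was 0.51, called higher. The log2 ratio of SDH2-2 to SDH2-1 within a library, which no scaling changes, was -1.84 ± 0.22 (SD, n = 3) in WT at Day 0 and -1.80 ± 0.14 at Day 4 (exact permutation p = 0.7, two-sided). In the mutant it went from -1.99 ± 0.03 to -1.61 ± 0.13 without overlap (exact permutation p = 0.1, two-sided, the smallest possible). SDH1-1 (AT5G66760), the flavoprotein, was at a log2FC of -0.12 in WT and was not called, and under library totals alone it was at 0.91, called higher.

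In complex III, 8 of 11 members rose and 1 fell in both genotypes, and the genes for 1 small subunit parted.
QCR7-2 (AT5G25450) had a level of 438, 430.0 and 388 CPM in WT on Day 0, of 9.05, 15.9 and 26.5 on Day 4 and of 8.9995, 9.003 and 9.21 on Day 6. QCR7-2 in *nph4-1 arf19-1* had 653, 555 and 867 CPM on Day 0, then 23.9, 25.2 and 30.7 on Day 4 and 19.6, 22.5 and 22.3 on Day 6. QCR7-2 encodes a small subunit, and at Day 0 its WT level per kilobase of transcript, 375.5 ± 23.9 CPM (SD, n = 3), was the highest of all 54 members. By Day 4 it stood at 30.7 CPM or lower in every library, the largest fall of any member (log2FC -4.62 ± 0.25, edgeR adjusted p = 8.2e-13 in WT and log2FC -4.71 ± 0.25, edgeR adjusted p = 9.5e-13 in the mutant).
QCR7-1 (AT4G32470) had a level of 67.9, 66.8 and 65.6 CPM in WT on Day 0, of 156, 167 and 162 on Day 4 and of 165, 148 and 162 on Day 6. QCR7-1 in *nph4-1 arf19-1* had 55.7, 55.6 and 57.9 CPM on Day 0, then 168, 162 and 219 on Day 4 and 405, 344 and 302 on Day 6. QCR7-1, the other gene for the subunit, rose over the same days (log2FC 1.28 ± 0.12, edgeR adjusted p = 4.8e-09 in WT). The log2 ratio of QCR7-2 to QCR7-1 within a library went from 2.64 ± 0.07 (SD, n = 3) to -3.37 ± 0.74 in WT and from 3.59 ± 0.29 to -2.78 ± 0.08 in the mutant. Neither change had overlapping libraries, and each gave p = 0.1 in an exact permutation test, two-sided, the smallest p that 3 against 3 libraries allow. QCR7-2 shares 276 exon bases with an annotated gene on the opposite strand, and the sources used here do not say whether strand was used in counting.

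**Figure D2:**
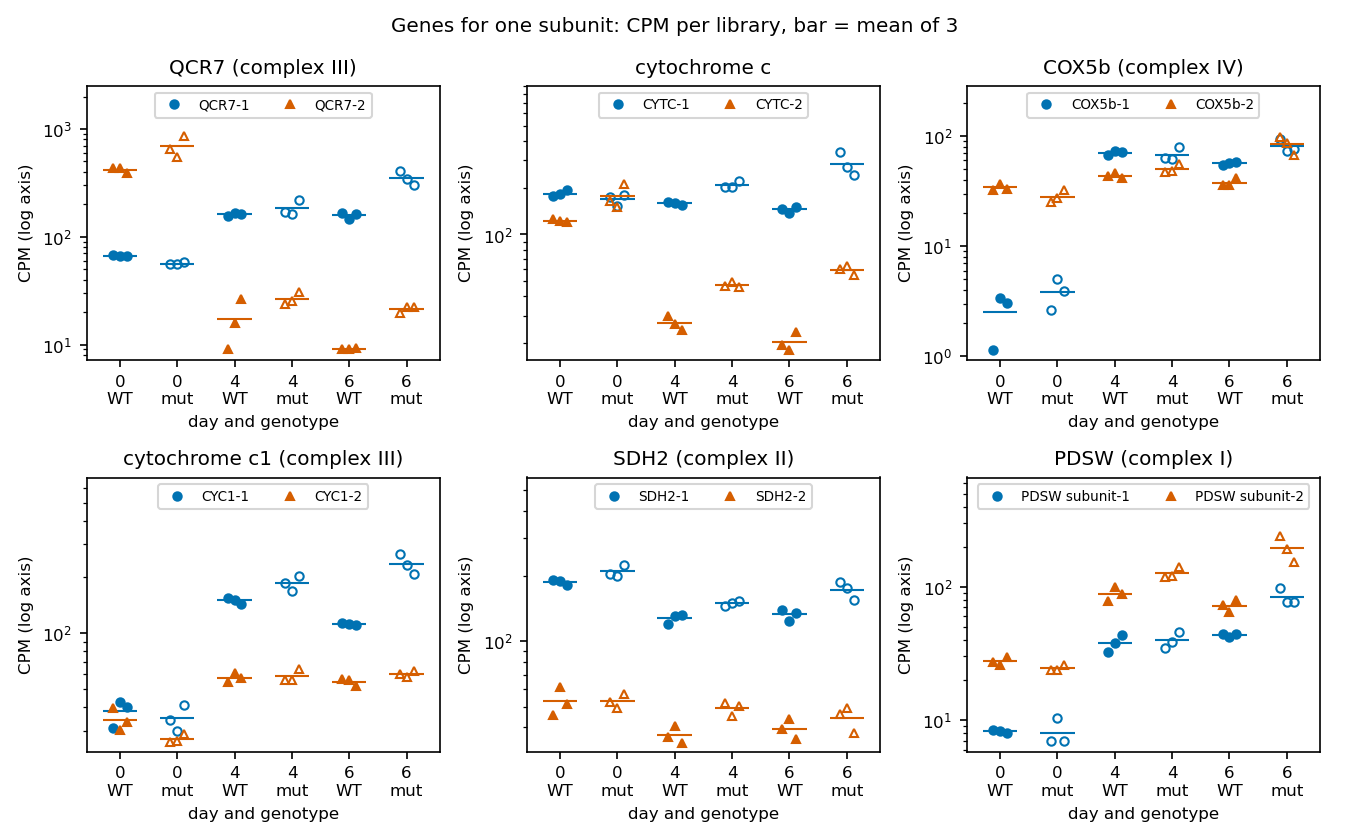
CPM (log axis) in each library of the 2 genes for 6 subunits, by day and genotype (mut, *nph4-1 arf19-1*), with filled symbols for WT, open symbols for the mutant and bars for the mean of 3 libraries. QCR7-2 falls from 388 CPM or higher to 30.7 or lower while QCR7-1 rises, CYTC-2 falls to 63.1 CPM or lower, and COX5b-1 rises from 4.99 CPM or lower to 54.5 or higher.

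QCR8 (AT3G10860) had a level of 13.8, 19.6 and 17.7 CPM in WT on Day 0, of 79.5, 113 and 128 on Day 4 and of 115, 108 and 129 on Day 6. QCR8 in *nph4-1 arf19-1* had 18.3, 16.1 and 16.3 CPM on Day 0, then 117, 114 and 163 on Day 4 and 289, 227 and 211 on Day 6. QCR8, another small subunit, rose most in complex III (log2FC 2.63 ± 0.19, edgeR adjusted p = 6.7e-11), although replicate 1 of WT at Day 4 was below the other two.
CYC1-1 (AT3G27240) had a level of 31.2, 42.5 and 40.2 CPM in WT on Day 0, of 155, 149.8 and 144 on Day 4 and of 113, 112 and 109.8 on Day 6. CYC1-1 in *nph4-1 arf19-1* had 34.2, 29.8 and 40.9 CPM on Day 0, then 186, 167 and 203 on Day 4 and 264, 232 and 208 on Day 6. CYC1-1, cytochrome c1, rose by 1.97 ± 0.13 in WT and its Day 4 libraries in the mutant were all above those in WT, a difference (0.31 ± 0.12) that was not called.
CYC1-2 (AT5G40810) had a level of 39.4, 30.1 and 33.3 CPM in WT on Day 0, of 54.4, 60.8 and 57.5 on Day 4 and of 56.4, 56.2 and 51.9 on Day 6. CYC1-2 in *nph4-1 arf19-1* had 25.97, 26.3 and 28.9 CPM on Day 0, then 56.1, 56.3 and 64.3 on Day 4 and 60.6, 58.4 and 62.6 on Day 6. CYC1-2 rose less, by 0.75 ± 0.10, and the log2 ratio of CYC1-2 to CYC1-1 reads within a library fell by 1.23 in WT and by 1.29 in the mutant (exact permutation p = 0.1 for each, two-sided). Of the core subunits, which form the processing peptidase, MPPalpha-2 (AT3G16480) rose by 1.59 and MPPbeta (AT3G02090) by 0.32 in WT, and MPPalpha-1 (AT1G51980) was at 0.15 and not called. Rieske-1 (AT5G13430) rose by 0.71, and Rieske-2 (AT5G13440) was at -0.08 and not called. The transcripts of the Rieske genes share 15.8% and 13.3% of their 50-base windows, and whether reads from such windows were counted was not tested.

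Of the genes for cytochrome c, the mobile carrier, neither was called higher at Day 4 in either genotype under TMM, as was the case for the catalytic genes of complex II.
CYTC-2 (AT4G10040) had a level of 126, 122 and 119 CPM in WT on Day 0, of 29.8, 26.7 and 24.4 on Day 4 and of 19.4, 18.01 and 23.7 on Day 6. CYTC-2 in *nph4-1 arf19-1* had 164, 151 and 211 CPM on Day 0, then 46.5, 49.3 and 45.8 on Day 4 and 59.8, 63.1 and 54.7 on Day 6. CYTC-2 fell in both genotypes (log2FC -2.18 ± 0.13, edgeR adjusted p = 2.5e-12 in WT and log2FC -1.89 ± 0.13, edgeR adjusted p = 2.3e-11 in the mutant), with a wide gap between days. On each day all 3 mutant libraries were above all 3 WT libraries.
CYTC-1 (AT1G22840) had a level of 176, 181 and 193 CPM in WT on Day 0, of 162, 159.9 and 155 on Day 4 and of 147, 138 and 151 on Day 6. CYTC-1 in *nph4-1 arf19-1* had 175, 152 and 180.2 CPM on Day 0, then 203, 201 and 221 on Day 4 and 338, 270.2 and 243 on Day 6. CYTC-1 was at log2FC -0.21 ± 0.11, edgeR adjusted p = 0.092 in WT and was not called, and under library totals alone it was at 0.82 and called higher. The log2 ratio of CYTC-2 to CYTC-1 fell by 1.98 in WT and by 2.19 in the mutant from Day 0 to Day 4 (exact permutation p = 0.1 for each, two-sided).

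In complex IV, 6 of 7 members rose in WT and 7 of 7 in the mutant.
COX5b-1 (AT3G15640) had a level of 1.15, 3.41 and 3.05 CPM in WT on Day 0, of 66.7, 72.9 and 70.96 on Day 4 and of 54.5, 56.6 and 57.9 on Day 6. COX5b-1 in *nph4-1 arf19-1* had 2.62, 4.99 and 3.92 CPM on Day 0, then 62.4, 61.96 and 78.98 on Day 4 and 94.7, 72.9 and 75.4 on Day 6. COX5b-1, a zinc-binding subunit, had the highest log2FC of all members (log2FC 4.73 ± 0.22, edgeR adjusted p = 6e-14 in WT, log2FC 4.12 ± 0.21, edgeR adjusted p = 4.3e-13 in the mutant), and its lowest library, replicate 1 of WT at Day 0, rested on 6 reads.
COX5b-2 (AT1G80230) had a level of 32.5, 36.9 and 32.9 CPM in WT on Day 0, of 43.6, 45.8 and 41.1 on Day 4 and of 35.9, 35.6 and 41.2 on Day 6. COX5b-2 in *nph4-1 arf19-1* had 25.2, 27.3 and 31.98 CPM on Day 0, then 47.5, 48.1 and 56.1 on Day 4 and 98.7, 86.9 and 66.8 on Day 6. Per kilobase of transcript, COX5b-2 was above COX5b-1 in all 6 Day 0 libraries and below it in all WT libraries of Days 4 and 6. Its own change in WT was small (log2FC 0.35 ± 0.13, edgeR adjusted p = 0.02), short of the call with TMM but called with DESeq2's size factors, under library totals, and when the fit used only the 2 groups.
COX5c-1 (AT2G47380) had a level of 15.4, 12.1 and 13.2 CPM in WT on Day 0, of 32.6, 37.7 and 44.98 on Day 4 and of 45.8, 42.5 and 44.3 on Day 6. COX5c-1 in *nph4-1 arf19-1* had 12.1, 10.98 and 12.4 CPM on Day 0, then 38.2, 37.7 and 51.1 on Day 4 and 88.2, 78.4 and 66.8 on Day 6. COX5c-1, a small subunit, rose by 1.51 ± 0.15 in WT.
COX5c-2 (AT3G62400) had a level of 11.5, 12.3 and 11.6 CPM in WT on Day 0, of 34.01, 34.2 and 38.6 on Day 4 and of 33.1, 30.7 and 34.9 on Day 6. COX5c-2 in *nph4-1 arf19-1* had 11.2, 9.98 and 9.36 CPM on Day 0, then 45.4, 47.5 and 59.6 on Day 4 and 84.3, 77.2 and 62.6 on Day 6. COX5c-2 rose by 1.58 ± 0.14 in WT and by 2.31 ± 0.14 in the mutant, where its Day 4 libraries were all above those of WT.
COX5c-3 (AT5G61310) had a level of 1.92, 2.36 and 2.85 CPM in WT on Day 0, of 12.03, 11.2 and 12.4 on Day 4 and of 14.1, 12.6 and 14.2 on Day 6. COX5c-3 in *nph4-1 arf19-1* had 1.87, 2.83 and 3.48 CPM on Day 0, then 9.67, 8.45 and 12.2 on Day 4 and 13.2, 14.5 and 14.7 on Day 6. COX5c-3 was the lowest of the 3 genes per kilobase of transcript in every library and rose by 2.32 ± 0.20 in WT. COX6a (AT4G37830) rose by 1.14 and COX6b-1 (AT1G22450) by 2.24.

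All 7 complex V members rose in both genotypes.
beta-1 (AT5G08670) had a level of 133, 138 and 133 CPM in WT on Day 0, of 597, 586 and 599 on Day 4 and of 438, 437 and 439 on Day 6. beta-1 in *nph4-1 arf19-1* had 140.1, 120.5 and 143 CPM on Day 0, then 559, 512 and 645 on Day 4 and 725, 636 and 579 on Day 6. Beta-1, with beta-2 and beta-3, encodes the catalytic beta subunit, and the 3 genes lie in a row on chromosome 5.
beta-2 (AT5G08680) had a level of 172, 185 and 165 CPM in WT on Day 0, of 361, 378 and 377 on Day 4 and of 281, 259 and 273 on Day 6. beta-2 in *nph4-1 arf19-1* had 159, 169 and 174 CPM on Day 0, then 373, 346 and 413 on Day 4 and 500.1, 466 and 406 on Day 6. Beta-2 rose by 1.10 ± 0.10 in WT, without overlap between Days 0 and 4.
beta-3 (AT5G08690) had a level of 118, 139.9 and 133 CPM in WT on Day 0, of 619, 624 and 607 on Day 4 and of 408, 413 and 425 on Day 6. beta-3 in *nph4-1 arf19-1* had 118, 108 and 121 CPM on Day 0, then 592, 528 and 630.4 on Day 4 and 713, 633 and 566 on Day 6. Beta-3 rose most in complex V in WT (log2FC 2.25 ± 0.11, edgeR adjusted p = 2.2e-13), and beta-1 rose by 2.14. Per kilobase of transcript, beta-2 was the highest of the 3 in every Day 0 library and the lowest in every later one. The transcripts of the trio share 8.17 to 12.6% of their 50-base windows with each other, and whether reads from such windows were counted was likewise not tested.
The delta subunit gene (AT5G47030) had a level of 120.2, 113 and 114 CPM in WT on Day 0, of 167, 161 and 138 on Day 4 and of 141, 136 and 132 on Day 6. The delta subunit gene in *nph4-1 arf19-1* had 104, 90.02 and 95.95 CPM on Day 0, then 121, 112 and 147 on Day 4 and 199, 168 and 166 on Day 6. This central stalk gene rose least in complex V (log2FC 0.42 ± 0.11, edgeR adjusted p = 0.0017), and its genotypes overlapped at Day 4. The gamma subunit (AT2G33040) rose by 1.70 in WT, OSCP (AT5G13450) of the stator by 2.23 and subunit d (AT3G52300) by 1.76.

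The second question was whether the genotypes differed. At Day 0, 1 of 54 members, CYTC-2 (log2FC 0.52 ± 0.12, edgeR adjusted p = 0.0053), was called higher in *nph4-1 arf19-1* and 0 were called lower, against 6.4% and 1.84% of all variants. The count of lower calls was also 0 with DESeq2, where 2.4% of all variants were called lower. At the looser limit of an unadjusted p below 0.05 in edgeR, 8 members were lower, and the share of all variants at that limit is not given. CYTC-2 lost the call when any 1 WT library or replicate 3 of the mutant was left out, under library totals, and in a fit of these 2 groups alone.

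At Day 4, 6 members were called higher in the mutant and 1 lower, against 14.8% and 13% of all variants, and the members' median log2FC was 0.01. The 6 were CYTC-2 (0.81 ± 0.13), PDSW-2 (0.51 ± 0.13), COX5c-2 (0.51 ± 0.12), the second 23-kDa gene (AT1G16700, 0.44 ± 0.12), B17.2 (AT3G03100, 0.39 ± 0.11) and CYTC-1 (0.39 ± 0.11). Gamma CAL1 was the one called lower (log2FC -0.45 ± 0.09, edgeR adjusted p = 0.00073). QCR7-2 was at log2FC 0.63 ± 0.25, edgeR adjusted p = 0.048 and not called, with overlapping libraries, and was called at 1.10 without replicate 3 of WT. MEE4 (-0.27) and the delta subunit (-0.29) completed the lower end and were not called. The count of 6 was 3 without any 1 WT library or without replicate 2 of the mutant, 1 without replicate 3 of the mutant, and 1 under library totals alone. The single lower call became 2 without replicate 3 of the mutant and 3 under library totals alone. In that scaling 11.4% of all variants were called higher and 19.2% lower.

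The change from Day 0 to Day 4 did not differ by a called amount between the genotypes. In the genotype-by-time contrast, 0 of 54 members were called in either direction with edgeR, against 6.73% of all variants higher and 6.09% lower. With DESeq2 the count was also 0 in either direction, against 7.35% and 7.96%. At the looser limit of an unadjusted p below 0.05, 14 members were higher and 2 lower, and the share of all variants at that limit is not given. COX5c-2 (0.73 ± 0.20) and PDSW-2 (0.69 ± 0.21) had the highest values and COX5b-1 (-0.61 ± 0.35) and MEE4 (-0.59 ± 0.24) the lowest. 1 member was called higher without replicate 3 of the mutant at Day 0, without replicate 2 of WT at Day 4, or in a fit of the 4 groups alone.

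At Day 6 the picture was different. In *nph4-1 arf19-1*, 45 of 54 members were called higher than in WT and 0 lower, against 24% and 23.4% of all variants. The median log2FC of the members was 0.69 and that of all variants -0.04. With DESeq2, 46 were higher and 0 lower (24.2% and 23.6% of all variants), and 0 members were lower at an unadjusted p below 0.05. No member passed the study's log2FC limit of 2 in edgeR or DESeq2, against 6.06% of all variants higher and 4.01% lower in edgeR. The differences were thus moderate in size and spread over the complexes, with 17 of 22 members of complex I, 4 of 5 of complex II, 9 of 11 of complex III, 6 of 7 of complex IV, both cytochrome c genes and 7 of 7 of complex V called higher.

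Under library totals alone, 27 members were called higher and 1 lower at Day 6, against 14.8% and 43.2% of all variants. The median over the members was then 0.29, where that over all variants was -0.43. A positive log2FC was then held by 41 members, against 53 under TMM. The distance between the 2 medians was 0.73 under either scaling, and 53 of 54 members lay above the all-variant median under either. This agreement too was set in advance by the common shift and is no separate result. The share of mapped reads taken by the 54 genes was 0.953–0.960% in WT and 1.10–1.31% in the mutant at Day 6, without overlap. At Day 6 the 10 most abundant genes took 6.42–7.50% of reads in WT and 10.4–12.05% in the mutant. In the TMM fit, 3 of 8 mesophyll markers were called lower in the mutant, against 23.4% of all variants. The part of these genes and markers in the result was not tested.

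**Figure D3:**
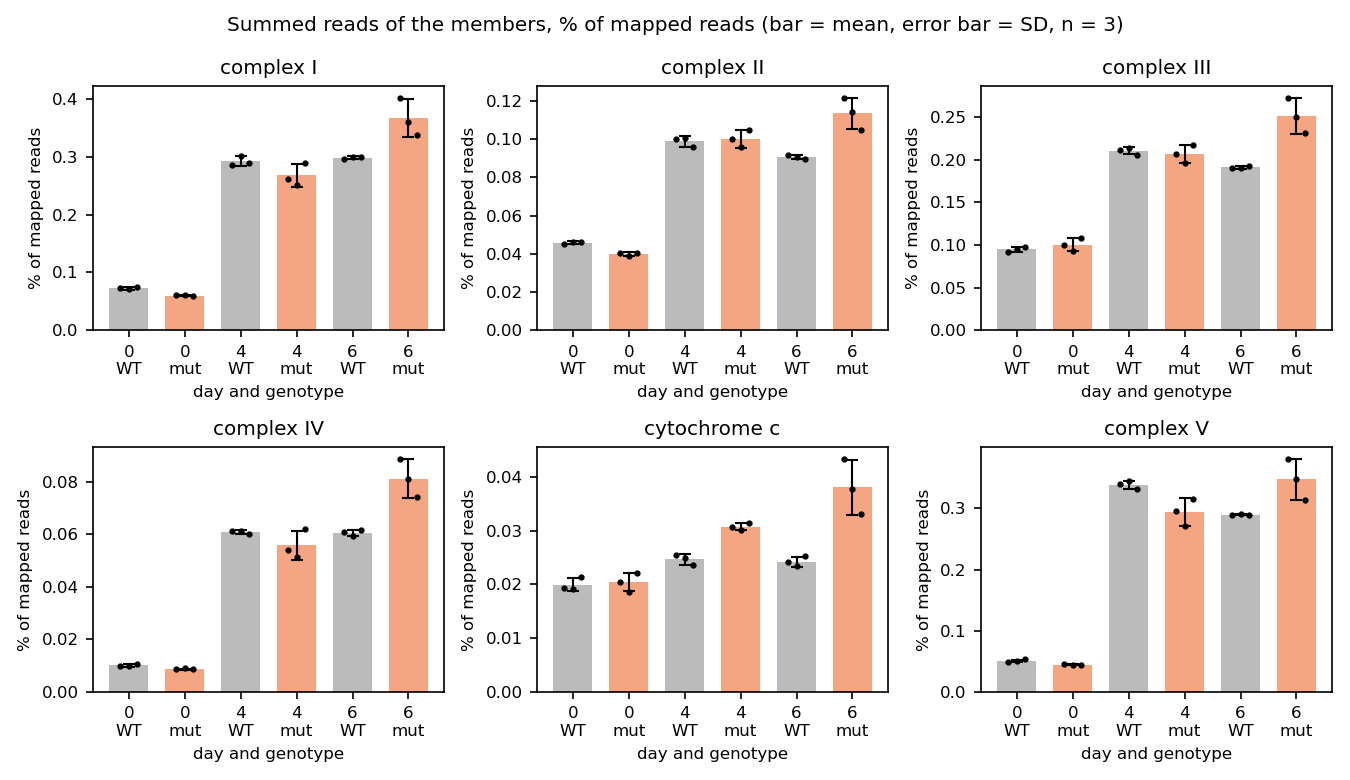
Summed reads of the members of each complex as a percentage of mapped reads, by day and genotype (mut, *nph4-1 arf19-1*), with bars for the mean, error bars for the SD and points for the 3 libraries. Every complex has its highest mean share in the mutant at Day 6, where complex I has 0.339–0.403% against 0.296–0.300% in WT.

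B17.2 (AT3G03100) had a level of 63.3, 68.4 and 65.2 CPM in WT on Day 0, of 93.1, 86.3 and 74.97 on Day 4 and of 79.3, 70.9 and 81.3 on Day 6. B17.2 in *nph4-1 arf19-1* had 60.9, 57.7 and 59.4 CPM on Day 0, then 103, 111 and 119.6 on Day 4 and 245, 186 and 203 on Day 6. B17.2, an accessory subunit of complex I, had 3 mutant libraries at Day 6 far above every other library (log2FC 1.45 ± 0.11, edgeR adjusted p = 1.2e-09). Only CYTC-2 was further from WT (log2FC 1.54 ± 0.13, edgeR adjusted p = 5.9e-09), and the next was PDSW-2 (log2FC 1.44 ± 0.14, edgeR adjusted p = 2.5e-08). The mutant libraries of CYTC-2 at Day 6, 54.7 to 63.1 CPM, remained below every Day 0 library.

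At the low end, gamma CA1 was at log2FC -0.10 ± 0.12, edgeR adjusted p = 0.5, COX5c-3 at log2FC 0.05 ± 0.15, edgeR adjusted p = 0.79 and CYC1-2 at log2FC 0.14 ± 0.10, edgeR adjusted p = 0.25, none of them called. Under library totals alone the last 2 were at -0.34 and -0.26, not called, and gamma CA1 was at -0.50 and called lower. Ratios of reads between genes for the same subunit, taken within a library, were compared between the genotypes at Day 6. Of 14 ratios, 12 did not overlap between the genotypes. How often ratios of other gene pairs separate was not computed, and at Day 6 24% of all variants were called higher and 23.4% lower. Ratios that share COX5c-1 or beta-1 are not independent. Each of the 12 had an exact permutation p of 0.1, two-sided, the smallest that 3 against 3 libraries allow, and the lowest Benjamini-Hochberg adjusted p was 0.117. The log2 ratio of CYC1-2 to CYC1-1 was lower by 0.92 in the mutant, and that of COX5c-3 to COX5c-1 by 0.75. The ratio of the second to the first 23-kDa gene was higher by 0.91, and that of COX5b-2 to COX5b-1 by 0.63. The ratios of SDH2-2 to SDH2-1 (lower by 0.21, p = 0.2 in the exact test) and of QCR7-2 to QCR7-1 (higher by 0.10, p = 0.6 in the exact test) overlapped. In the fit across all variants, CYC1-1 (1.07 ± 0.12), COX5c-1 (0.82), COX5c-2 (1.19) and SDH2-1 (0.38 ± 0.09) were called higher, and SDH2-2 (0.18 ± 0.13) was not. The other members called higher included SDH5 (1.13), QCR7-2 (1.24), QCR7-1 (1.15), COX5b-2 (1.17), COX5b-1 (0.52), the 20-kDa gene (1.08), QCR8 (1.05), PDSW-1 (0.94), B16.6-2 (0.80), B13 (0.73), beta-2 (0.76), beta-3 (0.62), beta-1 (0.56), SDH6 (0.60), the delta subunit (0.39) and gamma CAL1 (0.30). MEE4 (0.36) was not called although its mutant libraries, 27.5 to 34.1 CPM, lay above its WT libraries, 23.1 to 24.3.

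**Figure D4:**
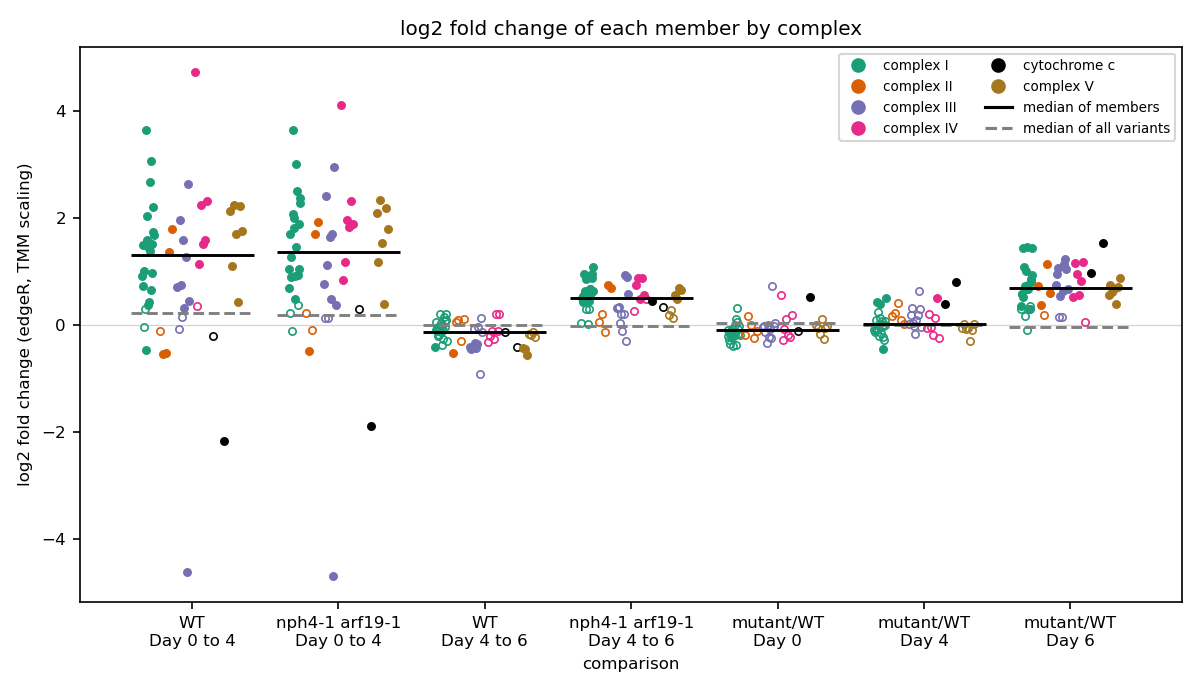
log2 fold change of each member (points, coloured by complex, filled where called at FDR below 0.01) in 7 comparisons, with the median of the members (black line) and of all variants (dashed grey line). The medians of the members lie at 1.32 and 1.37 for Day 0 to Day 4, near 0 for the genotype at Days 0 and 4, and at 0.69 at Day 6.

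The Day 6 difference was followed back to each genotype's change from Day 4. In WT, 0 members rose and 10 fell from Day 4 to Day 6, against 9.27% and 11.8% of all variants, with a median of -0.13. With DESeq2, 0 rose and 14 fell (9.34% and 13.2% of all variants), and 0 members rose at an unadjusted p below 0.05. The 10 were beta-1, beta-2, beta-3, both Rieske genes, MPPalpha-1, MPPalpha-2, MPPbeta, SDH1-1 and the 75-kDa subunit of complex I (AT5G37510), and their log2FC ran from -0.34 (MPPalpha-1) to -0.57 (beta-3). This count was 6 without replicate 1 or 2 of Day 4 WT, 5 without replicate 1 or 2 of Day 6 WT, and 2 under library totals alone (8.44% of all variants).

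In *nph4-1 arf19-1*, 33 members rose and 0 fell from Day 4 to Day 6, against 10.7% and 8.65% of all variants, with a median of 0.50. With DESeq2, 36 rose and 0 fell (11.9% and 9.21% of all variants), and 0 members fell at an unadjusted p below 0.05. The largest rise was that of PDSW-1 (log2FC 1.08 ± 0.14, edgeR adjusted p = 8.1e-06), and complex I held 18 of the 33. The genes of the WT fall did not rise in the mutant by a called amount, with values from -0.11 (MPPalpha-2) to 0.32 (Rieske-2). Of the 45 members higher at Day 6, 30 had risen in the mutant, 9 had fallen in WT and 6 had done neither by a called amount.

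The difference between the genotypes in the change from Day 4 to Day 6 was called higher for 36 of 54 members and lower for 0, against 8.73% and 3.34% of all variants, with a median of 0.69. With DESeq2, 39 were higher and 0 lower (10.9% and 3.84% of all variants), and 0 were lower at an unadjusted p below 0.05. It was called for all 7 members of complex V, 15 of 22 of complex I, 7 of 11 of complex III, 4 of 7 of complex IV, 2 of 5 of complex II and CYTC-2. B17.2 (log2FC 1.06 ± 0.16, edgeR adjusted p = 5.9e-05) and SDH5 (log2FC 1.04 ± 0.16, edgeR adjusted p = 7.5e-05) had the highest values. SDH2-2 (log2FC -0.24 ± 0.18, edgeR adjusted p = 0.37) and gamma CA1 (log2FC 0.04 ± 0.18, edgeR adjusted p = 0.89) had the lowest and were not called. The count was 23 without replicate 2 of the mutant at Day 4, 22 without replicate 1 of the mutant at Day 6, and 12 under library totals alone. In that scaling 5.14% of all variants were called higher and 8.1% lower, and the median over all variants was -0.28.

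The other genes of the pathway were counted in the same fits, so that the shares of all variants given above for each contrast apply to these counts too. Of 41 other nuclear subunit genes, 39 were tested. Among these, AT5G09600 and AT4G32210 had nearly the same mean level in every group. They stood at 157.164 and 157.204 CPM in WT at Day 0, and at 377.012 and 376.193 in the mutant at Day 6. Whether reads shared by both loci were counted for each was not tested, so that they may not be separate counts. From Day 0 to Day 4, 36 rose and 1 fell in each genotype, with medians of 1.38 in WT and 1.57 in the mutant. At Day 6, 34 of the 39 were higher in the mutant and 0 lower, with a median of 0.76, and from Day 4 to Day 6 33 rose in the mutant and 0 in WT.

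Transcripts of 21 loci for subunits encoded in the mitochondrial genome, which a poly(A)-selecting kit captures only in part, took another course. They were counted by locus rather than by gene. From Day 0 to Day 4, 19 rose in WT (median 2.22) and 21 in the mutant (median 3.77), and at Day 4 all 21 were already higher in the mutant (median 1.80). They then fell in both genotypes, 14 in WT and 19 in the mutant, and 20 of 21 were higher in the mutant at Day 6 (median 1.57). The nuclear members thus differed between the genotypes by a median of 0.01 at Day 4, where the mitochondrial loci differed by 1.80.

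The alternative oxidases, which pass electrons from ubiquinone straight to oxygen, and the alternative NAD(P)H dehydrogenases were tested at 10 of 12 genes. In WT 4 rose and 5 fell from Day 0 to Day 4, a split near that of all variants (42.6% and 37%). In the mutant 1 rose and 5 fell, against 39% and 36.1%. At Day 6, 4 were higher and 1 lower in the mutant, against 24% and 23.4% of all variants. Together the 12 genes took 1248 to 1475 RPM in WT at Day 0 and 177 to 258 RPM at Day 6, and 1651 to 1818 and 562 to 604 RPM in the mutant.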

How the data were processed

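Stranded mRNA libraries (Kapa) of 18 protoplast samples were mapped by the authors with Bowtie 0.12.9 to TAIR10, and uniquely mapped reads were kept. The deposited values are raw tag counts per splice variant with each library's total of mapped reads. Variants of a gene share reads, and counts sum to 1.45 to 1.51 times the total. Whether counting used strand is not given in the sources used here. Groups and replicate numbers were taken from the sample titles.

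Counts were fitted in edgeR 4.0.16 (R 4.3.3) by the quasi-likelihood test with a mean for each of 6 groups, TMM scaling of the authors' totals of mapped reads, and filterByExpr (minimum count 10, minimum total 15). FDRs are over all 25202 variants. DESeq2 1.42.0 served as an alternative. The fit was tested on simulated data. The study's limits were a log2FC beyond 2 and FDR below 0.01. In ratios within a library, 0.5 reads were added to each count. A floor of 3 reads equals 0.248 to 0.872 RPM, for counting error only.

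The members and lists were chosen with earlier results of these data known. Values in every library are given for the highest and lowest member of each complex from Day 0 to Day 4 in WT, for the 3 highest and 3 lowest by genotype at Days 4 and 6, for the 2 highest and 2 lowest by genotype-by-time contrast, and for their partners in the same subunit. This gave 29 members. Loci and promoters are from RefSeq TAIR10.1, in which all 54 transcripts were matched. Of the 54 genes, 24 overlap another annotated gene, 7 of them on the same strand.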

Additional observations from a re-analysis of the deposited data

Results flagged for a closer look

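The difference between the genotypes in the signed change from Day 4 to Day 6 was called higher in *nph4-1 arf19-1* for 36 of 54 members, by the genotype-by-time term of the edgeR fit, against 8.73% of all variants (3.34% in the other direction). A positive difference can come from a rise in the mutant or from a fall in WT, and for beta-3 the changes were -0.57 in WT and 0.13 in the mutant. The count was 23 without replicate 2 of the mutant at Day 4, 22 without replicate 1 of the mutant at Day 6, and 12 under library totals alone. The named members among them at the top were B17.2, with a difference in log2FC of 1.06, and SDH5, with 1.04. In both, all 3 mutant libraries rose above all libraries of Day 4 while the WT libraries did not. Groups of 3 libraries were too small for a search for single outlying libraries.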

How the results depend on the processing

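Counts of called members were recomputed under other scalings, tests and filters and without each library in turn, and 227 of 258 recomputed counts stayed within 1.5 times. With library totals alone, lower calls were 2 (from 5) for WT Day 0 to 4, 2 (from 10) for WT Day 4 to 6, 3 (from 0) for the genotype at Day 0, 3 (from 1) at Day 4 and 1 (from 0) at Day 6. Of all variants in that scaling, 20.6%, 8.44%, 4.83%, 19.2% and 43.2% were called lower, in the same order. Higher calls were 0 (from 1) at Day 0, 1 (from 6) at Day 4, 27 (from 45) at Day 6 and 12 (from 36) for the genotype-by-time contrast of Days 4 to 6. Of all variants, 4.66%, 11.4%, 14.8% and 5.14% were called higher there. With DESeq2 size factors, higher calls at Day 4 were 3 (13.9% of all variants). Fits of only the groups compared gave 0 higher at Day 0, 3 higher at Day 4 and 1 higher for the contrast of Days 0 to 4. Leaving out a library, lower calls ran from 5 to 8 for WT Day 4 to 6 and from 1 to 2 for the genotype at Day 4. Higher calls ran from 0 to 1 at Day 0, from 1 to 4 at Day 4, from 0 to 1 for the contrast of Days 0 to 4 and from 22 to 37 for that of Days 4 to 6. For the genotype at Day 6, 42 of 54 members kept the same sign in every scaling. Over the contrasts this number ran from 38 (WT Day 4 to 6) to 53 (contrast of Days 0 to 4). Of 39 single-gene values, which cover named members only, 7 turned direction under 555 recomputations. Under library totals alone these were the 20-kDa gene (0.56), SDH2-1 (0.48) and CYTC-1 (0.82) from Day 0 to 4 in WT, COX5c-3 (-0.34) and CYC1-2 (-0.26) at Day 6, and gamma CA1 for the contrast of Days 4 to 6 (-0.21), which ran from -0.078 (without replicate 3 of Day 4 WT) to 0.12 when a library was left out. The library totals differ from TMM by construction in a shift common to all genes of a contrast.

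The replicate numbers did not pair the libraries: same-numbered libraries of 2 groups correlated in their deviations at -0.11 to 0.27, above 0.1 in 5 of 45 pairs. With a replicate block, 44 members were higher at Day 6, 42 higher and 5 lower for WT Day 0 to 4, and 35 higher for the contrast of Days 4 to 6. Depth limits the lowest members, such as COX5b-1 at Day 0 with 6 reads in its shallowest value.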

Other observations

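Per kilobase of annotated transcript, the order of the members in WT changed with culture. At Day 0 the highest mean levels were those of QCR7-2 (375.5 ± 23.9 CPM per kilobase, SD, n = 3), CYTC-1 (251 ± 12.2), the 20-kDa gene (190.3 ± 5.79) and MPPbeta (151 ± 8.26). At Day 4 they were those of beta-1 (286 ± 3.42), beta-3 (280.0 ± 3.88), COX6a (274 ± 14.5) and subunit d of ATP synthase (222 ± 16.5). Members with a site II element in the promoter window had a median log2FC of 1.48 from Day 0 to Day 4 in WT (n = 32) and those without had 1.06 (n = 22), with ranges of -2.18 to 3.65 and -4.62 to 4.73. At Day 6 the medians of the genotype difference were 0.67 and 0.74. These medians were not tested against each other.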
